A study of Mus musculus with 7 samples.

Results

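The primitive endoderm genes Gata4, Gata6, Sox7, Sox17, Foxa2, Pdgfra, Dab2, Cubn, Lama1 and Lamb1 were followed in mouse ESC clones that lack 1 or both copies of a distal super-enhancer (SE) of Sox2. They were chosen by name, as genes commonly used to mark this lineage, with earlier results of these data known, and all 10 were among the 31498 genes that could be measured. RNA-seq was performed on 4 clones of F123, a hybrid ESC line with one set of CAST and one of 129 chromosomes, with 1 library each. Wild type cells carry both copies of the SE, CAST+/129- cells lost the copy on the 129 chromosome, CAST-/129+ cells lost the copy on the CAST chromosome, and CAST-/129- cells lost both. The deletions were made by CRISPR with a pair of guide RNAs, and each genotype is represented by a single clone, so that a difference between genotypes cannot be told apart from a difference between clones. Transfected cells recovered on embryonic fibroblast feeders, and cells were passaged on gelatin with no feeders before harvest. ChIP-seq for H3K4me3 in F123 cells and for H3K27ac in F123 and J1 cells, J1 being an ESC line of 129 background, gives the promoter state of the same genes in cells with an intact SE, with 1 library for each.

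Primitive endoderm is the layer of extraembryonic cells that separates from the epiblast inside the blastocyst and goes on to form the visceral and parietal endoderm of the yolk sac. Gata6 is among the earliest factors to set this fate, FGF signalling through ERK favours it, and Pdgfra, Sox17, Gata4 and Sox7 follow as the cells commit. The mature layer takes up nutrients by endocytosis, to which Dab2 and Cubn contribute, and lays down a laminin-rich basement membrane, of which Lama1 and Lamb1 are chains. ESC correspond to the epiblast, and their cultures are known to hold a minor fraction of cells that express primitive endoderm genes.

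The RNA-seq libraries held between 5831199 distinct alignments on genes in CAST-/129- and 24848422 in wild type. Collapsing of reads to distinct alignments was unequal, with 2.58 reads per alignment in wild type. It was 2.02 in CAST+/129-, 2.03 in CAST-/129+ and 1.84 in CAST-/129-. Sox2 itself was at 175 FPKM (alignments per exonic length, scaled to the alignments on genes of each library) in wild type, while CAST+/129- had 82.0, CAST-/129+ had 73.1 and CAST-/129- had 7.40, in the order that the labelled genotypes give. Of 10 markers of undifferentiated ESC, Pou5f1 remained at 188, 132, 207 and 163 FPKM in the same order. Past the 3-fold threshold on FPKM plus 4 were Klf4 in both monoallelic clones, and Klf4, Nanog, Zfp42, Esrrb and Sox2 in CAST-/129-, all lower. Each difference below compares 1 library with another. Intervals are exact 95% intervals that cover counting error only and are too narrow, because 38.4 to 46.7% of RNA-seq alignments had a partner of equal length offset by 2 bases, and no difference has a replicate check.

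Sequences are shown for the starts of 4 genes at which RNA and promoter marks are compared further on. RefSeq promoters, 250 bases before to 50 bases after a start in GRCm38.p6, were given for 5 of the 10 genes (Cubn, Foxa2, Pdgfra, Lamb1 and Dab2), and each matched the mm9 genome at 1 place. Gata4, Gata6, Sox7, Sox17 and Lama1 had no entry. In the lines below CG dinucleotides are in capitals, and the coordinates are those of mm9. Pdgfra is read from the plus strand of chr5:75548026-75548325, Cubn from the minus strand of chr2:13413454-13413753, Lamb1 from the plus strand of chr12:31949908-31950207, and the upstream and downstream starts of Dab2 from the plus strand of chr15:6249539-6249838 and chr15:6336498-6336797.
Pdgfra: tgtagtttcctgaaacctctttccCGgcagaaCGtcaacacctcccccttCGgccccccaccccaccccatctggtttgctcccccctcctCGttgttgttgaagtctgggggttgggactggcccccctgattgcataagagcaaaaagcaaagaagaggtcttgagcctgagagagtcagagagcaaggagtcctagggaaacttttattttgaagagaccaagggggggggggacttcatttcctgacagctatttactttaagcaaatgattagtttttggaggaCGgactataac
Cubn: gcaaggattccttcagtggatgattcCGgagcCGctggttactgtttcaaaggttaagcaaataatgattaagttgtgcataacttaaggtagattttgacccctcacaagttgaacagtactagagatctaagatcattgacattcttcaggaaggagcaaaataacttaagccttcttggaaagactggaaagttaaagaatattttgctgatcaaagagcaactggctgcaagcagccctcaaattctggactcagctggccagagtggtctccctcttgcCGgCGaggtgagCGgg
Lamb1: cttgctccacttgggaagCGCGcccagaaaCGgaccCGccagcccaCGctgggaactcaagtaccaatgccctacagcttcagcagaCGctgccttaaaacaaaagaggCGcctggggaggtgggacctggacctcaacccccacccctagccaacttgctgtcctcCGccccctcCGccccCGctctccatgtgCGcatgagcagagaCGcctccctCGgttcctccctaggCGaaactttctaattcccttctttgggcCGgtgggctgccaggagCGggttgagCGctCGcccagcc
Dab2 upstream: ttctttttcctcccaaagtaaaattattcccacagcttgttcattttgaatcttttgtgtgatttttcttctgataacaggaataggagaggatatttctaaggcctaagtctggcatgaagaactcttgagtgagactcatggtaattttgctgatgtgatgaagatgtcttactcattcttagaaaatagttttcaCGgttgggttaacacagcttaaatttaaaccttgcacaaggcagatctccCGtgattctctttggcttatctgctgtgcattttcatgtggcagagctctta
Dab2 downstream: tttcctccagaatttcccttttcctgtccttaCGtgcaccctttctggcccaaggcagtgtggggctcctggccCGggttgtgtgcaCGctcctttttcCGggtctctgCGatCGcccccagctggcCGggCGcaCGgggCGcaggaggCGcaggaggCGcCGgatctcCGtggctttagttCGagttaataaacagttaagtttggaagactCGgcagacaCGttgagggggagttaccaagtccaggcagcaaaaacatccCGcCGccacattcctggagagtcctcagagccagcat
The promoters differed in CG content, since Pdgfra and Cubn held 5 CG dinucleotides each, Lamb1 held 18, and the Dab2 starts held 2 upstream and 19 downstream, beside a median of 7 over 32544 promoters of the same length. The letters GATAA, the core of the sequence that GATA factors bind, were found on either strand in the upstream Dab2 promoter 2 times, at 178 bases before and 14 bases after the start, and in none of the other 4 sequences shown, while 25.3% of all promoters held them. Neither ACAANGG, a Sox-type core, nor TATAAA was found in the 5 sequences shown, and each was found in 13.6% of all promoters. Of the 3 Foxa2 promoters, which are not printed, 1 at chr2:147871151-147871450 held 1 GATAA, at 182 bases before the start, and 1 TATAAA.

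As a group, the 10 genes were lower in the mutant clones than in wild type. Of the 10, 10 were lower in CAST+/129-, 7 in CAST-/129+ and 8 in CAST-/129-, and the median level was 30.3%, 53.7% and 21.2% of wild type. On the log2 scale of FPKM plus 4 their median ratios were -1.11, -0.63 and -1.35. The median of all 31498 genes was 0.00 in each comparison, but with 4 added a gene with little RNA in both libraries stays near 0. Over the 13826 genes with a mean of at least 1 FPKM the median was -0.03, -0.06 and -0.08. With reads before collapsing the medians of the 10 genes were -1.12, -0.65 and -1.01. In each comparison 3 of the 10 were past the 3-fold threshold downwards and 0 were past it upwards. They were Gata6, Pdgfra and Gata4 in CAST+/129-, and Gata6, Pdgfra and Lama1 in both CAST-/129+ and CAST-/129-. The threshold called 0.305%, 0.33% and 0.511% of all genes down and 0.321%, 0.473% and 0.819% up in the same order of comparisons. With 4 added to FPKM a gene must reach 8 FPKM in wild type to be called down. This held for 8 of the 10, for Sox7 only just at 8.26. Of the 8141 genes that reached 8 FPKM, 1.18%, 1.28% and 1.98% were called down. All 3 comparisons share the wild type library, so that a wild type value that is high by chance or by clone lowers all 3 ratios. In bulk RNA, fewer cells that express a gene and less RNA per cell cannot be told apart.

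**Figure D1:**
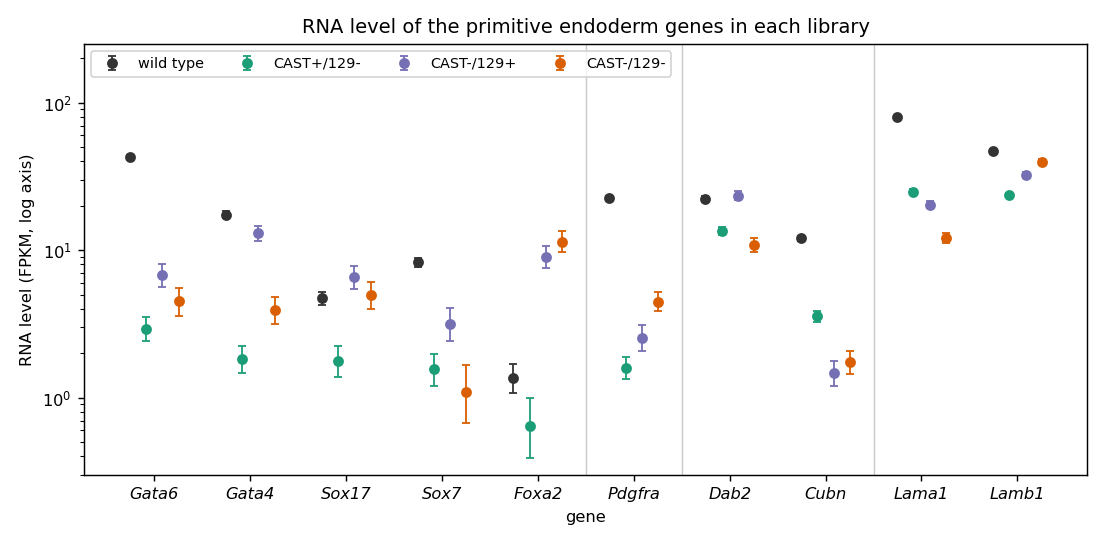
RNA level of each gene (FPKM, log axis) in the 4 libraries, 1 point per library with its exact 95% Poisson interval, for transcription factors, the receptor Pdgfra, the endocytic genes and the laminin chains from left to right. Wild type is the highest point for Gata6, Gata4, Sox7, Pdgfra, Cubn, Lama1 and Lamb1, whereas Foxa2 is highest in CAST-/129- at 11.4 FPKM.

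Gata6 (ENSMUSG00000005836.8, chr18:11052508-11085633, plus strand), a zinc finger factor that starts the primitive endoderm programme, was at 42.9 FPKM in wild type, while CAST+/129- had 2.94, CAST-/129+ had 6.77 and CAST-/129- had 4.51. The 3 mutant clones were all far below wild type, and no interval of theirs came near it. The counts were 3408, 117, 131 and 84 alignments, where the wild type rate would have given 1709, 831 and 800 in the mutants. Gata6 was thus at 6.85% (5.65–8.23) of wild type with the 129 copy lost, 15.8% (13.1–18.8) with the CAST copy lost and 10.5% (8.36–13.0) with both lost. Its log2 ratios of -2.76, -2.12 and -2.46 placed it 6th, 25th and 20th from the lowest of all 31498 genes. Among the mutants the order did not follow the number of SE copies, since CAST-/129- had 153% (114–205) of the level in CAST+/129- and 66.6% (50–88.3) of that in CAST-/129+. Gata6 and Lama1 are also in a list of lowered genes that the study drew from these libraries, which is therefore not independent of the values here.

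Gata4 (ENSMUSG00000021944.8, chr14:63817759-63890529, minus strand), a related factor that acts later in the lineage, differed between the monoallelic clones. It was at 17.4 FPKM in wild type, while CAST+/129- had 1.83, CAST-/129+ had 13.0 and CAST-/129- had 3.95. CAST-/129+ was the nearest to wild type at 74.6% (65.8–84.2), while CAST+/129- was at 10.5% (8.37–13.0) and CAST-/129- at 22.6% (18.1–28.0). The log2 ratio of -1.88 was past the threshold in CAST+/129-, and those of -0.33 and -1.43 were not. In CAST+/129- it was -1.52 with reads before collapsing and -1.21 with a pseudo-value of 10, short of the threshold. Compared directly, CAST+/129- held 14.1% (11–17.8) of the Gata4 level of CAST-/129+.

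Sox7 (ENSMUSG00000063060.5, chr14:64562511-64569569, plus strand) and Sox17 (ENSMUSG00000025902.7, chr1:4481009-4486494, minus strand) are related HMG-box factors of endoderm and endothelium. Sox7 was at 8.26 FPKM in wild type, while CAST+/129- had 1.56, CAST-/129+ had 3.15 and CAST-/129- had 1.09. It was lowest in the biallelic clone, at 13.2% (8.13–20.4) of wild type on 21 alignments where 159 would match the wild type rate, although its interval against CAST+/129- reached from 40.7 to 116% and so includes no difference. Sox17 behaved otherwise, at 4.73, 1.78, 6.54 and 4.95 FPKM in the same order. It was at 37.6% (28.7–48.7) of wild type with the 129 copy lost, 138% (112–170) with the CAST copy lost and 105% (82.2–132) with both lost, where the last interval includes the wild type level. The log2 ratios were -1.14, -0.78 and -1.27 for Sox7 and -0.60, 0.27 and 0.03 for Sox17, none past the threshold. Sox17 was too low in wild type to be called down. Sox7 was barely above the 8 FPKM needed and could pass only with its RNA almost absent, so its missing call says little.

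Foxa2 (ENSMUSG00000037025.5, chr2:147868613-147872705, minus strand), a forkhead factor of visceral endoderm that also marks the anterior primitive streak and definitive endoderm, was the gene of the set with the highest ratio to wild type in CAST-/129+ and CAST-/129-. It was low in wild type at 1.36 FPKM and in CAST+/129- at 0.643, and stood at 9.05 in CAST-/129+ and 11.4 in CAST-/129-. The clones fell into a low pair and a high pair, with 80, 19, 130 and 158 alignments. This was 47.4% (27.1–78.9) of wild type with the 129 copy lost, 666% (501–892) with the CAST copy lost and 842% (639–1116) with both lost. After adding 4 to FPKM the log2 ratios were -0.21, 1.28 and 1.53, none past the 3-fold threshold of 1.58, of which the value in CAST-/129- fell just short. With a pseudo-value of 1 or a threshold of 2-fold Foxa2 was called up in CAST-/129+ and CAST-/129-. CAST-/129- was at 126% (99.5–161) of CAST-/129+, an interval that includes no difference.

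Markers of primitive streak and definitive endoderm were highest in sum in the pair of clones with high Foxa2. Of 10 such genes 0, 4 and 5 were past the threshold upwards in CAST+/129-, CAST-/129+ and CAST-/129-, beside 0.321%, 0.473% and 0.819% of all genes. None of the 10 could be called down, since all were under the 8 FPKM in wild type that this needs. Their median log2 ratio was 0.04, 1.48 and 1.58. Their summed level was 8.86 FPKM in wild type, while CAST+/129- had 24.5, CAST-/129+ had 103 and CAST-/129- had 147. Wild type T, the brachyury factor of the streak, was at 0.418 FPKM and Mixl1 at 0.228, whereas CAST-/129- had 36.3 and 13.1. Eomes, a T-box factor of the streak, was at 3.89, 18.3, 28.3 and 13.1 FPKM and so made up most of the sum in CAST+/129-, where Foxa2 was lowest. The part of such cells in the Foxa2 values was not tested.

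Pdgfra (ENSMUSG00000029231.9, chr5:75548316-75594229, plus strand), the receptor for PDGF-A that supports survival of primitive endoderm, was at 22.6 FPKM in wild type, while CAST+/129- had 1.60, CAST-/129+ had 2.55 and CAST-/129- had 4.48. All 3 mutants were past the threshold, with log2 ratios of -2.25, -2.02 and -1.65. The ratio in CAST-/129- was -1.38 with reads before collapsing and -1.47 with all alignments as library size, and with a pseudo-value of 10 the ratios were -1.49, -1.38 and -1.17, none of them past it. They held 7.07% (5.90–8.40), 11.3% (9.19–13.7) and 19.8% (17.0–23.1) of the wild type level. Among the mutants the biallelic clone was the highest, at 281% (223–354) of CAST+/129- and 176% (137–226) of CAST-/129+.

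Fibroblasts express Pdgfra as well, and fibroblast markers were highest in that clone. Of 15 fibroblast markers 3, 3 and 9 were past the threshold upwards in CAST+/129-, CAST-/129+ and CAST-/129-, beside 0.321%, 0.473% and 0.819% of all genes. None of the 15 was past it downwards, but only Thy1, at 11.4 FPKM in wild type, reached the 8 FPKM that this needs. The summed level was 26.5 FPKM in wild type, while CAST+/129- had 122, CAST-/129+ had 121 and CAST-/129- had 599, led there by Col1a1, Col3a1 and S100a4 at 174, 63.8 and 147. In wild type Lum and Fap had no alignment. Of 9 macrophage markers 1, 1 and 2 were up, and none was down, though only Cd68 reached 8 FPKM in wild type. The summed levels of the 9 were 17.6, 25.6, 32.9 and 128 FPKM, and Lyz2, Ptprc and C1qa had no alignment in wild type. Lyz2, a lysozyme, made up 95.5 FPKM of the sum in CAST-/129-, whereas Cd68 and Mrc1 were highest in wild type, at 11.7, 5.62, 7.62 and 9.14 FPKM for Cd68 and 1.81, 0.202, 0.389 and 0.721 for Mrc1. The part of such cells in the Pdgfra level of the mutants was not tested.

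The ligand Pdgfa was higher in all 3 mutants, at 10.3 FPKM in wild type, while CAST+/129- had 31.4, CAST-/129+ had 29.2 and CAST-/129- had 24.6, although its log2 ratios of 1.31, 1.21 and 1.0 were not past the threshold. Of 11 genes of FGF and PDGF signalling, which include Pdgfa, 0, 1 and 1 were past it downwards and 0 upwards, with median log2 ratios of -0.21, -0.29 and -0.46. The gene past it was Etv4, an ETS factor that FGF signalling induces, at 47.1 FPKM in wild type and 9.78 and 10.7 in CAST-/129+ and CAST-/129-. Fgf4, the ligand that ESC secrete, was at 53.8, 37.3, 34.2 and 22.5 FPKM in the 4 libraries. Of its receptors, Fgfr1 was at 18.8, 21.8, 14.6 and 26.5 and Fgfr2 at 6.56, 9.72, 9.20 and 8.41.

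Dab2 (ENSMUSG00000022150.9, chr15:6249788-6390712, plus strand), a clathrin adaptor, and Cubn (ENSMUSG00000026726.8, chr2:13197965-13413551, minus strand), the endocytic receptor cubilin, act on the same uptake route but differed in these clones. Dab2 was at 22.4 FPKM in wild type, while CAST+/129- had 13.5, CAST-/129+ had 23.3 and CAST-/129- had 10.9. In CAST-/129+ it matched wild type within counting error at 104% (96.6–113), and it was at 60.5% (56.3–65.0) in CAST+/129- and 48.5% (43.5–54.0) in CAST-/129-. Cubn was at 12.0, 3.57, 1.47 and 1.74 FPKM in the same order and thus lower in every mutant, at 29.6% (27–32.5), 12.2% (9.94–14.8) and 14.5% (12.0–17.4) of wild type. CAST-/129+ and CAST-/129- were not told apart for Cubn, at a ratio of 119% (90.6–156). The Cubn log2 ratios were -1.08, -1.55 and -1.48, the latter 2 close to the threshold of 1.58 without passing it. With a pseudo-value of 1 these 2 were -2.40 and -2.25, past it.

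The partners of cubilin were also lower. Amn, the anchor that carries cubilin to the membrane, was at 11.4 FPKM in wild type, while CAST+/129- had 4.48, CAST-/129+ had 2.64 and CAST-/129- had 1.73, and Lrp2, the megalin receptor, was at 9.10, 5.68, 5.09 and 3.70. Neither passed the threshold. Of 13 markers of visceral endoderm, which include Amn and Lrp2, 6, 2, 11 and 4 reached 1 FPKM in the 4 libraries in the same order, and their summed levels were 32.3, 12.9, 44.4 and 14.2 FPKM. In wild type Afp, Apoa1 and Ttr were at 0, 0.130 and 0.132. Of the 13, only Apob passed the threshold, upwards in CAST-/129+ at 10.3 FPKM beside 0.373 in wild type, and the median log2 ratio was -0.11, 0.51 and -0.13. Afp, Apoa1 and Ttr, which mark differentiated visceral endoderm, were thus near 0 in the wild type library, which held the highest Gata6 level.

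Lama1 (ENSMUSG00000032796.7, chr17:68046605-68171985, plus strand) encodes the alpha 1 and Lamb1 (ENSMUSG00000002900.8, chr12:31950099-32014509, plus strand) the beta 1 chain of laminin-111, and they were the most abundant of the 10 genes in wild type. Lama1 was at 80.3 FPKM in wild type, while CAST+/129- had 24.9, CAST-/129+ had 20.3 and CAST-/129- had 12.1. Its levels stood in the order of the number of SE copies, with 31.1% (29.9–32.3) and 25.3% (23.8–26.8) of wild type in the monoallelic clones and 15.0% (13.9–16.2) in the biallelic clone. Each value is from 1 clone, the monoallelic intervals do not overlap, and a relation to copy number was not tested. The log2 ratio of -1.54 in CAST+/129- fell just short of the threshold that -1.79 and -2.39 passed. With reads before collapsing it was -2.03, past the threshold, so that Lama1 took the place of Gata4 among the 3 genes down there, and with a pseudo-value of 10 the ratio in CAST-/129+ was no longer past it. Lamb1 was at 46.8, 23.6, 32.4 and 39.5 FPKM and kept 50.5% (48.5–52.6), 69.3% (66.0–72.7) and 84.5% (80.7–88.4) of wild type. Its log2 ratios of -0.88, -0.48 and -0.22 became -1.32, -0.78 and -0.48 with reads before collapsing, beyond the counting intervals. The chains were therefore ordered in opposite ways in the mutants, Lama1 being lowest and Lamb1 highest in CAST-/129-.

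Lamc1, the gamma 1 chain of laminin-111, was at 97.8 FPKM in wild type and 56.7, 66.5 and 67.0 in CAST+/129-, CAST-/129+ and CAST-/129-. Of 12 genes of parietal endoderm and basement membrane, which include Lamc1, 0, 0 and 2 were past the threshold upwards and 2, 1 and 1 downwards, with median log2 ratios of -0.54, -0.30 and 0.62. Nid1, which links laminin to collagen IV, was down in the monoallelic clones at 17.0 and 16.3 FPKM beside 66.6 in wild type. Srgn was down in CAST+/129- and CAST-/129- at 2.96 and 2.42 beside 17.8, and Fst and Plat were up in CAST-/129- at 17.6 and 13.1 beside 2.88 and 1.64. Fibroblasts make many of these proteins too, and the part of the fibroblast markers given above in the Lamb1 and collagen levels of CAST-/129- was not tested.

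**Figure D2:**
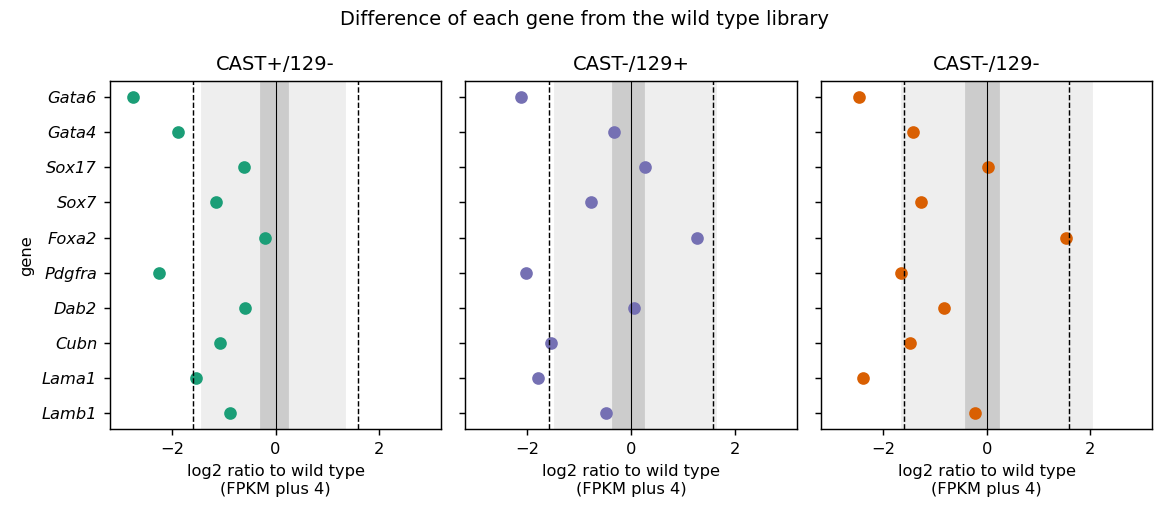
Log2 ratio to wild type of FPKM plus 4 for each of the 10 genes in the 3 mutant libraries. Dashed lines mark 3-fold (1.58 on either side), the dark band holds the 25th to 75th and the light band the 1st to 99th percentile of 13826 genes with a mean of at least 1 FPKM, and in each panel 3 points lie beyond the left dashed line and none beyond the right.

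A list of close relatives held Gata1, Gata2, Gata3, Gata5, Sox18, Foxa1, Foxa3, Pdgfrb, Dab1 and other laminin chains. Of these 18 genes 0 were past the threshold in either direction in any of the 3 comparisons, with median log2 ratios of -0.01, 0.07 and 0.24. Gata2 and Gata3, which act in trophoblast and blood, were low in wild type at 0.324 and 0.144 FPKM and higher in all mutants, at 4.17, 5.57 and 7.78 for Gata2 and 3.87, 3.22 and 1.36 for Gata3. Lama3 was lower, at 13.3 FPKM in wild type and 3.40, 4.57 and 3.53 in the mutants, whereas Lama5, an alpha chain made widely by epithelia, was at 39.1, 45.6, 40.7 and 50.4.

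Markers of anterior visceral endoderm, which arises from primitive endoderm, differed among themselves. Of 6 such genes 1, 3 and 2 were past the threshold upwards, with median log2 ratios of 0.03, 1.87 and 1.48. Over all genes 0.321%, 0.473% and 0.819% were called up. None of the 6 could be called down, since all were under the 8 FPKM in wild type that this needs. Lefty1, an inhibitor of Nodal, was at 6.50 FPKM in wild type, while CAST+/129- had 23.9, CAST-/129+ had 43.9 and CAST-/129- had 103. Cer1, another secreted inhibitor, was at 0.0463, 0.138, 14.3 and 37.4. Otx2 was at 3.2, 23.9, 28.3 and 15.2. Hhex, a homeobox factor, was instead highest in wild type, at 6.90 FPKM beside 1.65, 4.47 and 2.14, and Dkk1, an inhibitor of Wnt signalling, was at 3.37, 0.265, 15.2 and 13.2, with neither past the threshold. Gsc was at 0.191, 0.254, 8.48 and 8.27. Cer1 and Gsc are counted among the streak and definitive endoderm markers too, and Lefty1, Cer1 and Otx2 are also expressed by epiblast or definitive endoderm.

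**Figure D3:**
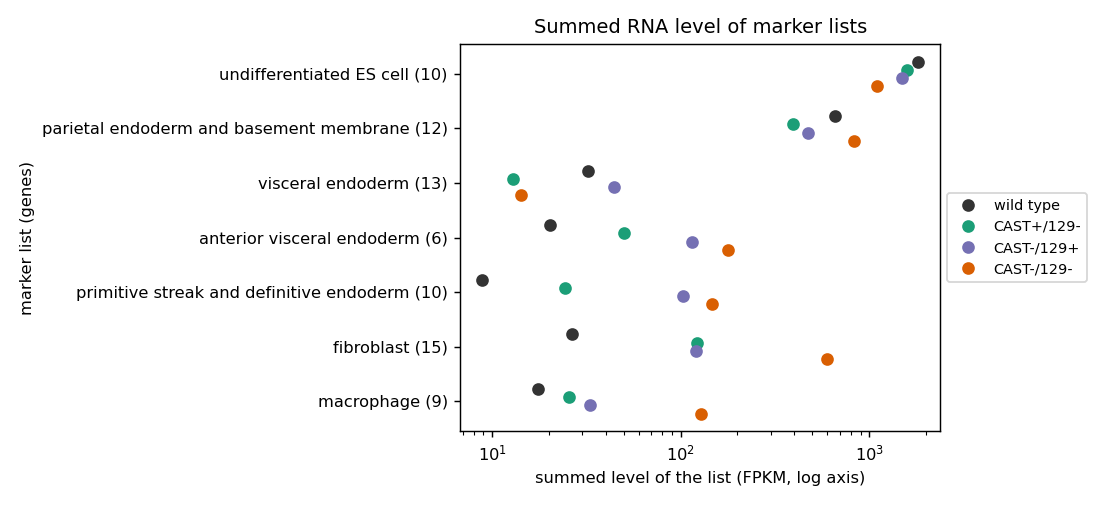
Summed RNA level (FPKM, log axis) of 7 marker lists in the 4 libraries, 1 point per library, with the number of genes of each list in brackets. The streak, fibroblast and macrophage lists are lowest in wild type (8.86, 26.5 and 17.6 FPKM) and highest in CAST-/129- (147, 599 and 128), and the ESC list is highest in wild type at 1822.

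For each gene past the threshold in CAST-/129-, the protein-coding genes with the nearest 3 log2 ratios were found among 8729 with a mean of at least 5 FPKM. They were Jdp2 and Ly75 for Gata6, at Euclidean distances of 0.38 and 0.44, Mras and Txnip for Pdgfra at 0.28 and 0.29, and Nlrp4f and Fam81a for Lama1, both at 0.25. The likeness is over 3 ratios that share wild type. Ly75, for example, was at 35.8 FPKM in wild type and 1.24, 2.88 and 3.29 in the mutants, and Nlrp4f at 41.5, 11.7, 7.22 and 4.03.

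In cells with an intact SE, promoter marks over 5-fold were found at the annotated starts of Gata6, Lama1, Lamb1 and Sox7. H3K4me3 marks active and poised promoters and H3K27ac active ones, and the 5′ ends of distinct alignments within 2 kb of the annotated start were set over the autosome mean of the library, since no input library was used here. For H3K4me3 3 of the 10 starts were over 5-fold, where 44.8% of 22208 protein-coding starts were. For H3K27ac 4 of 10 were in F123, where 27.3% of all starts were, and 2 of 10 in J1, where 21.1% were. The median fold of the 10 was 3.63, 2.13 and 2.60 for H3K4me3 in F123, H3K27ac in F123 and H3K27ac in J1, beside 3.80, 1.55 and 1.73 over all starts. Of the 6990 starts of genes at 8 to 100 FPKM in wild type, which is the range of 8 of the 10, 85.4% were over 5-fold for H3K4me3, 60.1% for H3K27ac in F123 and 45.8% in J1. The F123 H3K27ac library held 1576875 distinct alignments, beside 7108751 for H3K4me3 and 7743500 for H3K27ac in J1, and its folds are the least precise.

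**Figure D4:**
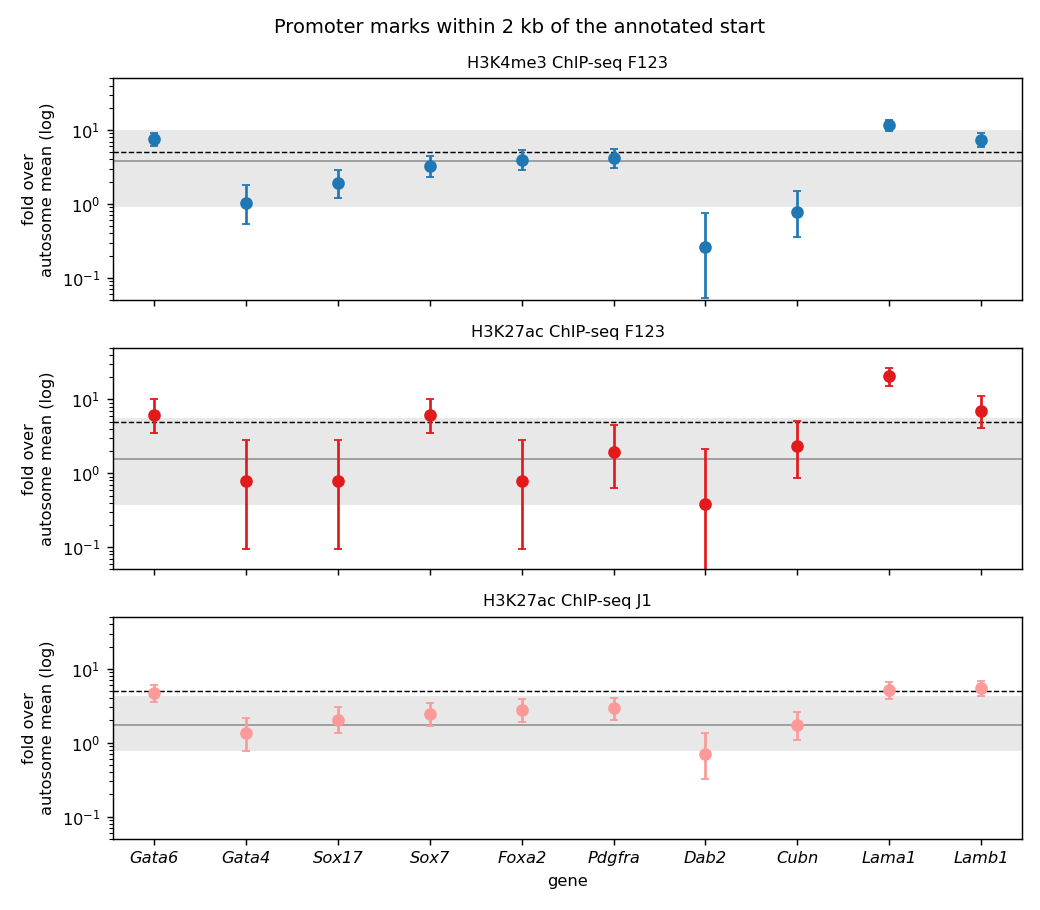
Fold over the autosome mean (log axis) within 2 kb of the annotated start of each gene, with exact 95% Poisson intervals, in the 3 ChIP-seq libraries. The grey band and line give the quartiles and the median of 22208 starts and the dashed line is 5-fold, which Gata6, Lama1 and Lamb1 exceed for H3K4me3 at 7.51, 11.7 and 7.34.

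Gata6, Lama1 and Lamb1 were over 5-fold for both marks in F123, although the H3K27ac intervals of Gata6 and Lamb1 reached below 5-fold and Gata6 fell below it with reads before collapsing. H3K4me3 was at 7.51-fold (6.02–9.27) at Gata6, 11.7-fold (9.77–13.8) at Lama1 and 7.34-fold (5.86–9.08) at Lamb1, and H3K27ac was at 6.20-fold (3.55–10.1), 20.5-fold (15.4–26.9) and 6.98-fold (4.14–11). In J1 cells H3K27ac was at 4.65-fold, 5.12-fold and 5.44-fold at these starts, the first of them under 5-fold. The intervals of Lama1 (3.96–6.53) and Lamb1 (4.23–6.89) reached below 5-fold in J1 as well, both genes fell below it with reads before collapsing, where Gata6 was over it, and Lama1 also with the mean of its own chromosome as background. Lama1 thus had the highest marks of the set in F123, at the 93.3rd percentile of all starts for H3K27ac. Of 90 bins of 1 kb between 5 and 50 kb from its start, 11 were over 5-fold for H3K27ac in F123 and 1 in J1, the highest at 23.3-fold and 24.6-fold. Over all 22208 starts 5.53% of such bins were over 5-fold in F123 and 5.22% in J1, with a median of 2 and 1 bins and an upper quartile of 7 and 6 bins per start. Lamb1 had 11 such bins in F123 and 3 in J1, Gata6 had 4 and 2, Gata4 had 3 and 0, Sox7 and Pdgfra had 1 and 0, and the other members had 0 in both. In the shallow F123 library 5-fold is only 3.22 alignments in a bin, beside 15.9 in J1.

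Sox7 and Foxa2 were under 5-fold for H3K4me3 over the whole window, although with 1 kb on each side of the start in place of 2 kb Sox7 was over it and 4 of the 10 genes were. Sox7 was at 3.28-fold and over 5-fold in 1 kb of the window, with F123 H3K27ac at 6.20-fold on 16 alignments, an interval (3.55–10.1) that reached below 5-fold, and J1 H3K27ac at 2.44-fold. Foxa2, the lowest of the 10 genes in wild type RNA, was at 3.97-fold for H3K4me3 and 0.775-fold and 2.76-fold for H3K27ac, on 46, 2 and 35 alignments. Its highest H3K4me3 bin of 500 bp was centred 1.75 kb upstream of the start, with 17 alignments (11.7-fold), beside 6.91-fold in the bin centred 0.75 kb downstream. Sox17 was at 1.90-fold for H3K4me3 at its start, but within the gene body bins of 500 bp centred 2.75 to 4.75 kb downstream of the start held 16, 26, 22, 24 and 9 alignments, up to 18.0-fold. No start of Sox17 is annotated there.

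**Figure D5:**
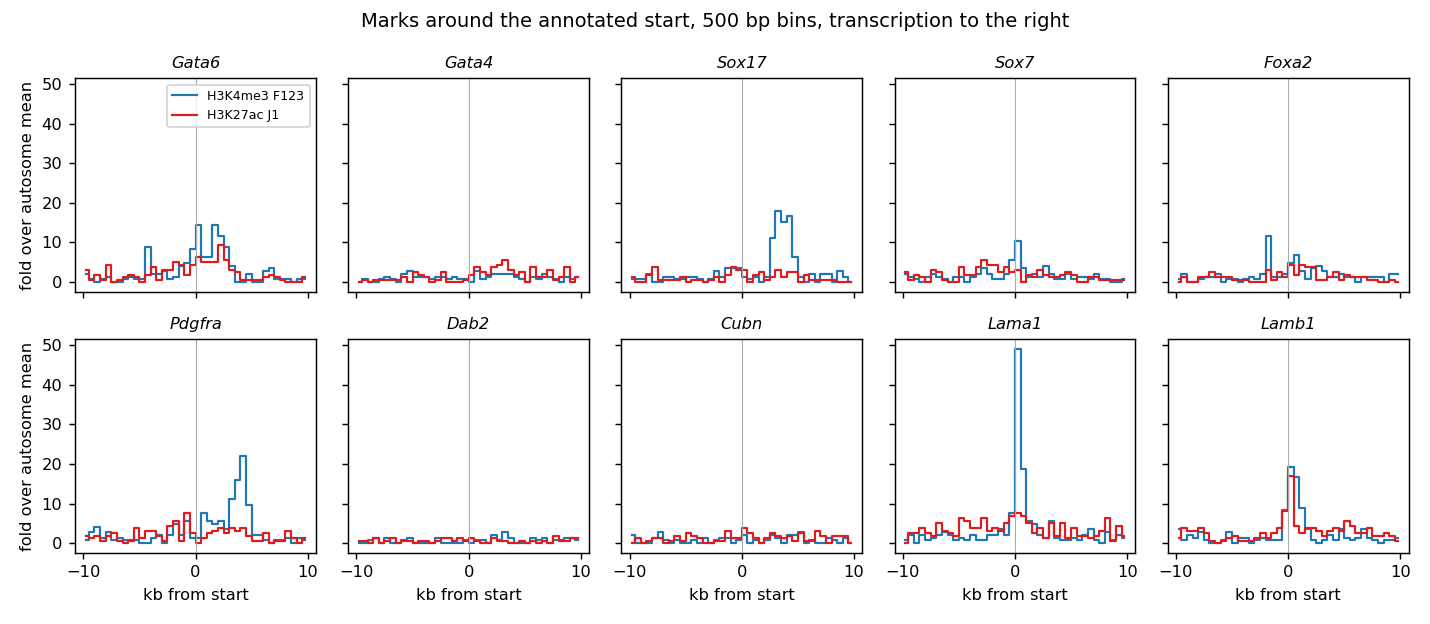
Fold over the autosome mean of H3K4me3 in F123 and H3K27ac in J1 in bins of 500 bp from 10 kb before to 10 kb after the annotated start of each gene, drawn in the direction of transcription. H3K4me3 rises at the start of Lama1 and Lamb1, inside Sox17 (up to 18.0-fold) and near the downstream start of Pdgfra, and stays low over the outermost starts of Gata4, Dab2 and Cubn.

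Pdgfra, Dab2 and Gata4 have further annotated starts at which H3K4me3 was higher than at the outermost one. For Pdgfra it was at 4.14-fold at the outermost start, whose promoter is printed above, and at 9.15-fold at the start 3875 bp downstream. RNA came from both, with 69 wild type alignments in the first exon of the outer start and 28 in that of the inner, so that the outer exon held more alignments although its start had the weaker mark. In CAST+/129-, CAST-/129+ and CAST-/129- these exons held 2, 0 and 5 and 0, 2 and 2 alignments.

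Dab2 showed the sharpest contrast between its starts. The upstream start, with 2 CG dinucleotides and both GATAA matches, had H3K4me3 at 0.259-fold (0.0534–0.757) and 1 wild type alignment in its first exon of 112 bases. The downstream start of the printed promoter with 19 CG dinucleotides, 86960 bp away, had H3K4me3 at 3.89-fold. A first exon of 335 bases that spans it, from the start 86810 bp away with H3K4me3 at 4.06-fold, held 54 wild type alignments. In the mutants the downstream exon held 17, 31 and 8 alignments and the upstream one 0, 0 and 1. In CAST-/129- the counts of 8 and 1 are too few to compare these exons, which differ in length. For Gata4, H3K4me3 was 1.04-fold at the outermost start and 3.54-fold at the start 26444 bp downstream, and their first exons held 23 and 26 wild type alignments. These Gata4 exons held 0 and 3 in CAST+/129-, 2 and 7 in CAST-/129+ and 0 and 6 in CAST-/129-, counts too low to compare the starts.

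The outermost start of Cubn, whose promoter is printed above, was at 0.777-fold for H3K4me3 (0.355–1.48) and 2.33-fold and 1.73-fold for H3K27ac in F123 and J1, none of which reached 5-fold, although wild type RNA held 48 alignments in its first exon. The first exons of the starts 32444 and 36300 bp downstream held 0. For Lamb1, over 5-fold for both marks in F123, the first exon of the outermost start held 340 alignments in wild type and 59, 43 and 54 in the mutants, and that of the start 11422 bp downstream, at 1.47-fold for H3K4me3, held 0 in all 4 libraries. With the highest annotated start of each gene in place of the outermost one, an alternative chosen after seeing the data, 4 of 10 genes were over 5-fold for H3K4me3 by the addition of Pdgfra, 5 for H3K27ac in F123 by the addition of Dab2, and 2 in J1.

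In wild type all 10 equal parts of the exonic bases of Gata6, Gata4, Sox7, Foxa2, Pdgfra, Lama1 and Cubn held alignments, and 8 or 9 did for Sox17, Dab2 and Lamb1. In CAST-/129- all 10 parts of Gata6 still held alignments with a count of 84, and 7 of Sox7 with a count of 21. The least spread was Foxa2 in CAST+/129-, where 5 of 10 parts held its 19 alignments. The files held no intronic alignment for 8 of the 10 genes, so that unspliced RNA could not be examined.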

How the data were processed

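RNA-seq of 4 F123 clones and ChIP-seq of F123 and J1 cells were analysed, 7 libraries with 1 per condition, grouped by the labels. The authors mapped RNA-seq reads to mm9 with Novoalign and USeq and ChIP-seq reads with Bowtie (versions are not given in the sources used here), and the deposited files list aligned positions with a whole-number count of the reads behind each. Distinct alignments were the unit here. RNA-seq alignments were counted on the sense strand by midpoint in exonic bases of 1 gene (GENCODE M1 on NCBIM37, at least 200 such bases), and FPKM was scaled to the alignments on genes of each library. Following the methods of the study, 4 was added to every FPKM before the log2 ratio was taken, and 3-fold was the threshold. Intervals are exact 95% Poisson or binomial intervals, and 3 counts are the limit that a count of 0 allows. PCR copies carry no molecular identifiers. With 1 library per condition no test was made and no p-value is given. The genes named are the 10 genes, up to 4 genes past 3-fold in CAST-/129- of each marker list, and the 2 nearest protein-coding genes of each of the 10 past 3-fold there. Other list genes (Pdgfa, Fgf4, Fgfr1, Fgfr2, Amn, Lrp2, Afp, Apoa1, Ttr, Apob, Hhex, Dkk1, Lamc1, Nid1, Gata2, Gata3, Lama3, Lama5, Otx2, Eomes, Gsc, Cd68, Mrc1, Pou5f1, Nanog, beyond the 4 ESC markers furthest past 3-fold, and the markers at 0) were named after their values were seen. The 10 genes and the lists were chosen with earlier results of these data known. A nested second Dab2 entry with 2 unshared bases was not used. Alternatives changed the unit, library size, pseudo-value, threshold, strand, shared exons, depth and ChIP-seq window, background and start. Values were computed with numpy 2.4.6, scipy 1.17.1 and pandas 2.3.3 under Python 3.11.15 and drawn with matplotlib 3.10.9.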

Additional observations from a re-analysis of the deposited data

Results flagged for a closer look

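Sox17 and Foxa2 were each lower than wild type in CAST+/129- and higher in CAST-/129+, which differ in the chromosome that lost the SE. The Sox17 level of CAST+/129- was 27.2% (20–36.8) of that of CAST-/129+, and the Foxa2 level 7.11% (4.15–11.6), with 70 and 125 alignments for Sox17 and 19 and 130 for Foxa2. With 1 clone of each genotype the difference was not tested, and the allele and the clone cannot be told apart.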

How the results depend on the processing

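Of 69 alternative values of the counts of genes past a threshold, 55 stayed within 1.5 times the value given above, and 14 did not. With a pseudo-value of 1, 6 of the 10 genes were down in CAST-/129- (Gata4, Sox7 and Cubn added) and 5 in CAST+/129- (Sox7 and Lama1 added), and 1, Foxa2, was up in both CAST-/129- and CAST-/129+. A pseudo-value of 10 left 1 down in CAST+/129- and 1 in CAST-/129+, Gata6 in both. At 2-fold, 6 were down in CAST-/129- and 6 in CAST+/129-, and 1, Foxa2, was up in CAST-/129- and CAST-/129+. At 10-fold, H3K4me3 marked 1 start and H3K27ac in F123 1 start, Lama1 in both, and H3K27ac in J1 0 starts. Reads before collapsing gave 1 start over 5-fold for H3K27ac in J1, Gata6 in place of Lama1 and Lamb1, and took Gata6 from the 4 in F123. Some calls changed while the counts did not move by over 1.5 times. In CAST-/129+ 4 genes were down with a pseudo-value of 1 and 4 at 2-fold, with Cubn (-2.40 with the pseudo-value of 1) added, and 4 starts were over 5-fold for H3K4me3 with 1 kb on each side, with Sox7 added. With reads before collapsing Lama1 (-2.03) replaced Gata4 (-1.52) in CAST+/129-, Pdgfra lost its call in CAST-/129- (-1.38) and also with all alignments as library size (-1.47), and with the chromosome mean as background Gata6 replaced Lama1 in J1. A lower pseudo-value or threshold admits low genes by construction. Of 240 alternative log2 ratios of single genes 156 lay within the counting interval, 84 outside it and 0 were reversed past the threshold, and the sign changed for Dab2 in CAST-/129+ alone, from 0.05 to -0.01 with all alignments as library size. No library could be left out with 1 per condition, and no paired analysis was possible because each condition has 1 library and no replicate number. Depth limits Foxa2 (19 alignments) and Sox7 (21) most.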
